A study of Mus musculus with 26 samples.

Results

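Genes that hold cells out of the division cycle, or release them into it, were followed as a set of 10 through muscle regeneration and through differentiation of cultured myoblasts. They were the rows whose gene symbol was Cdkn1a, Cdkn1b, Cdkn2a, Cdkn2b, Cdkn2c, Cdkn2d, Rb1, Rbl1, Rbl2 or Ccnd1, and all 10 were found among 53465 genes listed for muscle and 55487 listed for the cells. Tibialis anterior muscle of C57BL/6 J mice, male and 6 weeks old by the methods, was sequenced on days 0, 1, 3, 5 and 10 of injury with cardiotoxin (CTX), a toxin from snake venom that breaks down muscle fibres, with 2 libraries a day (CTX-D0 to CTX-D10). Day 0 is the state before injury, and whether it was untouched or saline-injected muscle is not settled by the sources used here. C2C12, an immortalized mouse myoblast line, was used as a control (Ctrl), whose construct is not described in the sources used here, or with dCas9-KRAB and guides to the Mettl3 promoter (Cas9M3), which represses transcription without cutting DNA. The hUbC promoter drove dCas9-KRAB from a lentivirus, and stable cells were selected with puromycin, although the design text calls them knockouts. Each was sequenced in growth medium (GM) and after 3 days in low-serum differentiation medium (D3), with 2 libraries a group. Whether the 2 libraries of a group came from separate animals or cultures is not stated, so the p-values measure the spread between libraries. That spread may be technical, except on muscle day 3, whose 2 libraries are described below.

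Myoblasts must leave the cell cycle before they fuse into fibres. Cyclin D1, the product of Ccnd1, activates the kinases CDK4 and CDK6, which phosphorylate the pocket proteins and free E2F factors to start DNA synthesis. Cip/Kip inhibitors (p21 from Cdkn1a, p27 from Cdkn1b) act on several cyclin-CDK complexes, whereas INK4 inhibitors (p16 from Cdkn2a, p15 from Cdkn2b, p18 from Cdkn2c, p19 from Cdkn2d) bind CDK4 and CDK6. Cdkn2a also encodes the unrelated ARF protein, and a value per gene does not separate p16 from ARF. The pocket proteins are RB (Rb1), p107 (Rbl1) and p130 (Rbl2). In muscle, p21 and RB are known for their part in the lasting exit of differentiating myocytes.

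The promoter window of Rbl1 and 1 of the 2 windows of Cdkn2a hold a sequence that E2F factors can bind, shown because E2F factors are what the pocket proteins hold back. Windows of RefSeq promoters (GRCm38.p6, 250 bases before to 50 after a start) were found for 8 of the 10 genes, Rb1 and Ccnd1 having no entry. TTTCCCGC, TTTCGCGC, TTTGCCGC and TTTGGCGC were searched on both strands, and 1 or more of them occurred in 2.26% of 32851 windows. Among the members they occurred in Rbl1, 18 bases before its start, and in 1 of the 2 windows of Cdkn2a, 99 bases before that window's start. Whether that start serves p16 or ARF was not determined. Both matches are on the minus strand of the genome and printed 5′ to 3′ with the match in capitals.
Rbl1, chr2:157204537-157204560: aaggcgatTTTCGCGCgctttgtc
Cdkn2a, chr4:89294703-89294726: tgggaagcTTTCCCGCgcgactgg
The other members lie on chromosome 17 at 29090976 to 29100727 (Cdkn1a), chromosome 6 at 134920401 to 134925513 (Cdkn1b), chromosome 4 at 89306299 to 89311039 (Cdkn2b, beside Cdkn2a at 89274471 to 89294653) and at 109660876 to 109667189 (Cdkn2c), chromosome 9 at 21288410 to 21291407 (Cdkn2d), chromosome 14 at 73183673 to 73325822 (Rb1), chromosome 8 at 91070057 to 91123844 (Rbl2) and chromosome 7 at 144929931 to 144939925 (Ccnd1), in GRCm38. A match is a description of these letters, not evidence of binding. CAGCTG, an E-box that MyoD can bind, was found in 1 of the 2 windows of Cdkn1a, in the window of Rbl1 and in 16.3% of all windows.

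Values are FPKM, fragments scaled to gene length and to a factor per library that did not follow the reads on genes. A read per kilobase stood for 0.0803 and 0.0749 FPKM on day 0 but 0.0507 and 0.0494 on day 3. Reads on genes were 16780000 and 16150000 on day 0 and 14330000 and 14290000 on day 3. Changes below hold for this scaling, and scaling by reads on genes was not tried. The authors scaled muscle and cells separately, so each comparison stays within muscle or within the cells. Changes are differences of log2(FPKM + 0.1), which understate the change of low genes, from limma fitted to all groups of a table, and a gene counted as called when its p, adjusted over all genes tested, was 0.05 or less. The test covered 16753 genes in muscle, with all 10 members, and 13824 genes in the cells, with 8 of the 10. For 2 libraries against 2, the smallest two-sided p of an exact permutation test is 0.333, so every p comes from the limma model. The implied depth was 14170000 to 18820000 reads on genes in muscle and 14230000 to 29560000 in the cells. Xist, the RNA of the inactive X chromosome, measured at least 5.77 FPKM in 5 muscle libraries, those of day 0, those of day 10 and day 3 replicate 2, and at most 0.152 FPKM in the other 5, although the study names male mice. Days 1 and 5 therefore differ from days 0 and 10 in this property as well, and the 2 cannot be told apart there. The day 3 libraries differ in Xist, at 0.0198 and 10.0 FPKM, so they are not repeats of the same RNA sample. Muscle holds many cell types, and fewer cells of a type cannot be told apart from less RNA per cell. On day 3 the summed FPKM of 8 fibre markers was 17674 and 13752 against 66574 and 58392 on day 0, and that of 8 macrophage markers was 550 and 522 against 20.0 and 37.2. The sum of 7 markers of fibroadipogenic progenitors was 478 and 526 against 82.9 and 155. The part of these cell types in the results below was not tested.

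On day 3, 6 of the 10 members differed from day 0, 5 of them higher (Cdkn1a, Cdkn2a, Cdkn2c, Rb1 and Rbl1) and Rbl2 lower. Of all genes tested, 48.8% were called in that comparison, 24.5% higher and 24.3% lower. The members' median change was 0.84, against 0.01 for all genes. On day 5, 5 members were called, with Cdkn2c, Cdkn2d, Rb1 and Rbl1 higher and Rbl2 lower, while 25.5% of all genes were called. No member was called by limma on day 1, where 6.0% of genes were, or on day 10, where 0.00597% were. At an unadjusted p of 0.05, the counts would be 4 on day 1, with 26.8% of all genes, and 3 on day 10, with 10.1%.

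**Figure D1:**
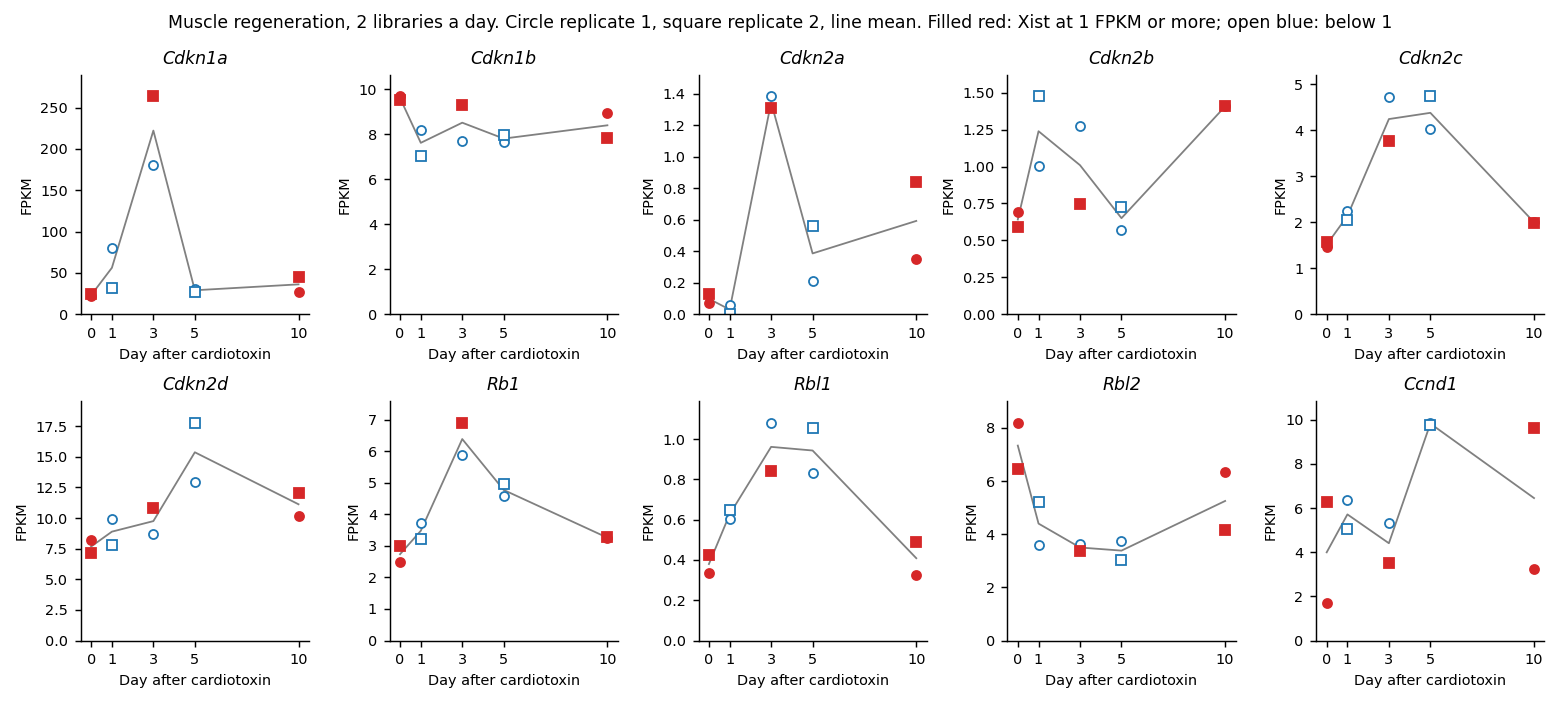
FPKM of the 10 members (vertical axes, each starting at 0) against day after cardiotoxin (horizontal axes), with 2 libraries a day as points and their mean as a line. Filled red points are libraries with Xist at 1 FPKM or more; Cdkn1a stands at 181 and 264 FPKM on day 3 and at 80.4 or below in every other library.

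Cdkn1a, which encodes p21, was the most abundant inhibitor among the members in muscle. Its FPKM was 21.6 and 24.7 on day 0, 80.4 and 32.0 on day 1, 181 and 264 on day 3, 30.6 and 27.5 on day 5, then 26.7 and 45.7 by day 10. Both day 3 libraries stood above all 8 others. The rise from day 0 to day 3 was 3.24 ± 0.43 (log2, SE; adjusted p = 0.000995), and that from day 1 was 2.10 (adjusted p = 0.0113). From day 3 to day 5 it fell by 2.91 (adjusted p = 0.00896), and it was the single member called between those days, where 12.7% of genes were. When Xist expression entered the fit as a term, these changes kept their direction, but the calls against day 1 and day 5 were lost. With the term, 8.17% and 0% of all genes were called there. Only day 3 holds libraries of both kinds, so that pair alone sets the term. Within the libraries that express Xist, day 3 was 264 FPKM against 21.6 and 24.7 on day 0, and within those that do not, it was 181 against 80.4 and 32.0 on day 1. The call against day 5 is also lost without day 3 replicate 2, day 5 replicate 1 or day 5 replicate 2. Those fits call a far smaller share of all genes than the main fit. Leaving out day 3 replicate 2 gives the same changes as the Xist term (1.83 from day 1, -2.64 to day 5), so it is no separate check. On day 1, replicate 1 stood 2.5 times above replicate 2, and the change from day 0 is called without replicate 2 (1.80).

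Cdkn1b, the other Cip/Kip member, was nearly level in FPKM. It ranged from 7.02 to 9.68 FPKM over the 10 libraries, and its libraries on days 1, 3, 5 and 10 were all below both day 0 libraries. These levels depend on the scaling. Cdkn1b held 693 and 857 implied reads on day 3 against 549 and 579 on day 0, from fewer reads on genes. None of its changes was called, and that on day 3 was -0.18 with a 95% interval of -0.52 to 0.16. Cdkn1c, the third gene of the family (p57) and not a member, rose like Cdkn1a to 140 and 166 FPKM on day 3 from 8.74 and 14.8 on day 0 (3.73, adjusted p = 0.000269), but was still at 69.5 and 70.8 on day 5 (2.61, adjusted p = 0.0076).

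The INK4 genes did not share a time course. Cdkn2c was at 1.46 and 1.56 FPKM on day 0, 2.24 and 2.04 on day 1, 4.72 and 3.77 on day 3, 4.02 and 4.74 on day 5, then 2.01 and 1.99 by day 10. Days 3 and 5 lay above every other library and overlapped each other. Cdkn2c rose by 1.42 ± 0.16 to day 3 (adjusted p = 0.000593) and by 1.47 ± 0.16 to day 5 (adjusted p = 0.00792), and fell by 1.04 from day 3 to day 10 (adjusted p = 0.00294). Cdkn2d peaked later, at 12.9 and 17.8 FPKM on day 5 against 8.21 and 7.14 on day 0 (0.98 ± 0.21, adjusted p = 0.0197). Its day 3 libraries, at 8.69 and 10.8, were above day 0 without a call.

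Cdkn2a was close to the limit of 1 read in resting muscle. Its values were 0.0685 and 0.128 FPKM on day 0, 0.0596 and 0 on day 1, 1.38 and 1.31 on day 3, 0.209 and 0.562 on day 5, then 0.348 and 0.836 by day 10. The day 0 values stand for 1 and 2 reads, and those of day 3 for 32 and 31. The day 3 libraries exceeded all others, and the change from day 0 was 2.88 ± 0.54 (adjusted p = 0.00394). It passed the filter on low values through days 3, 5 and 10. Cdkn2b, the neighbouring gene, lay between 0.573 and 1.48 FPKM, highest in 1 day 1 library and at 1.41 in both day 10 libraries, and no change was called.

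Among the pocket protein genes, Rb1 and Rbl1 rose in FPKM as Rbl2 fell. Rb1 was at 2.48 and 2.99 FPKM on day 0, 3.74 and 3.21 on day 1, 5.86 and 6.90 on day 3, 4.59 and 4.95 on day 5, then 3.24 and 3.27 by day 10. Its day 3 libraries were above all others, and Rb1 rose by 1.19 ± 0.16 by day 3 (adjusted p = 0.00095) and by 0.79 ± 0.16 by day 5 (adjusted p = 0.0168). Rbl1 was at 0.335 and 0.425 on day 0, 0.606 and 0.648 on day 1, 1.08 and 0.841 on day 3, 0.829 and 1.06 on day 5, then 0.327 and 0.491 by day 10. Day 10 overlapped day 0, and its change was 1.14 ± 0.28 for day 3 (adjusted p = 0.0121) and 1.12 ± 0.28 for day 5 (adjusted p = 0.0283).

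Rbl2 was at 8.20 and 6.47 FPKM on day 0, 3.59 and 5.21 on day 1, 3.63 and 3.37 on day 3, 3.73 and 3.04 on day 5, then 6.35 and 4.15 by day 10. Both day 0 libraries were above the other 8. Implied reads of Rbl2 were 772 and 653 on day 0 and 542 and 515 on day 3, the latter from fewer reads on genes. The size of its fall thus depends on the scaling, and its call on day 3 was not checked with scaling by reads on genes. Rbl2 fell by 1.04 ± 0.26 to day 3 (adjusted p = 0.0132) and fell by 1.09 ± 0.26 to day 5 (adjusted p = 0.0244). The day 3 calls of Rbl1 and Rbl2 are lost with the Xist term, at adjusted p = 0.0709 and 0.0515. All 5 calls on day 5 are lost with it as well, where that fit called 0% of all genes. For Rbl1 on day 3 the term gives the same change as leaving out day 3 replicate 1 (0.98), so these are not separate checks. The term cannot separate Xist from day on day 5. Quantile normalization ends the Rbl1 calls on day 3 (0.67, adjusted p = 0.0536) and day 5 (0.70, adjusted p = 0.078), and that on day 5 is also lost with no filter (adjusted p = 0.0569) and with only those groups fitted (adjusted p = 0.0562). Without day 0 replicate 1 the Rbl1 and Rbl2 calls on day 3 and every call on day 5 are lost. Every call on day 5 is also lost without day 5 replicate 2. Without day 5 replicate 1, the calls of Cdkn2c and Cdkn2d are left on day 5. On day 5 each of these fits calls a far smaller share of all genes than the main fit, so the losses are not particular to the members. The day 3 call of Rbl1 also needs day 3 replicate 1, that of Rbl2 needs day 3 replicate 2, and the day 5 call of Cdkn2d needs both day 0 libraries. Exons of Rbl2 overlap those of Aktip on the opposite strand over 693 bases and those of Gm45464 over 892 bases, exons of Rb1 overlap those of Rcbtb2 over 488 bases and Lpar6 over 408, and exons of Ccnd1 overlap those of LTO1 over 1100 bases; whether counting used strand is not stated.

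**Figure D2:**
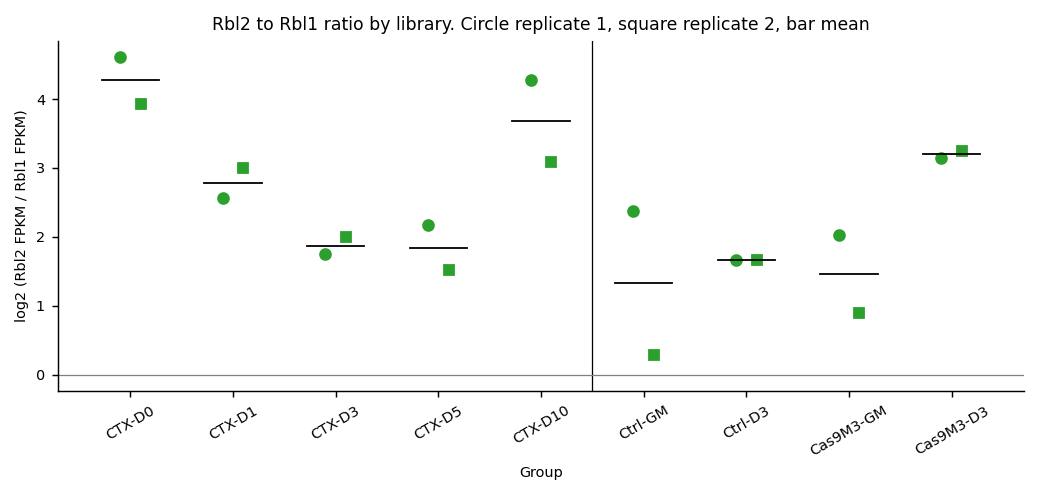
The log2 ratio of Rbl2 to Rbl1 FPKM (vertical axis) in each of the 18 libraries by group (horizontal axis), muscle left of the line and C2C12 cells right of it, with bars at the mean. It falls from 4.61 and 3.93 on day 0 to 1.75 and 2.0 on day 3, and the 2 Ctrl-GM libraries stand at 2.38 and 0.29.

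Within a library, the ratio of Rbl2 to Rbl1 was 24.5 and 15.2 on day 0, 3.36 and 4.0 on day 3, 4.49 and 2.87 on day 5, then 19.4 and 8.46 by day 10. It needs no scaling between libraries, and day 3 and day 5 lay below every library of the other days. The 6 inhibitors summed to 41.7 and 43.7 FPKM on day 0, of which Cdkn1a made up 51.7% and 56.6%. On day 3 they summed to 205 and 290, and Cdkn1a made up 88.4% and 91.0%. With Cdkn1c added to the sum, Cdkn1a made up 52.4% and 57.9% on day 3 and 42.8% and 42.3% on day 0. On day 5 Cdkn2d held its largest share in muscle, 23.1% and 30%.

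**Figure D3:**
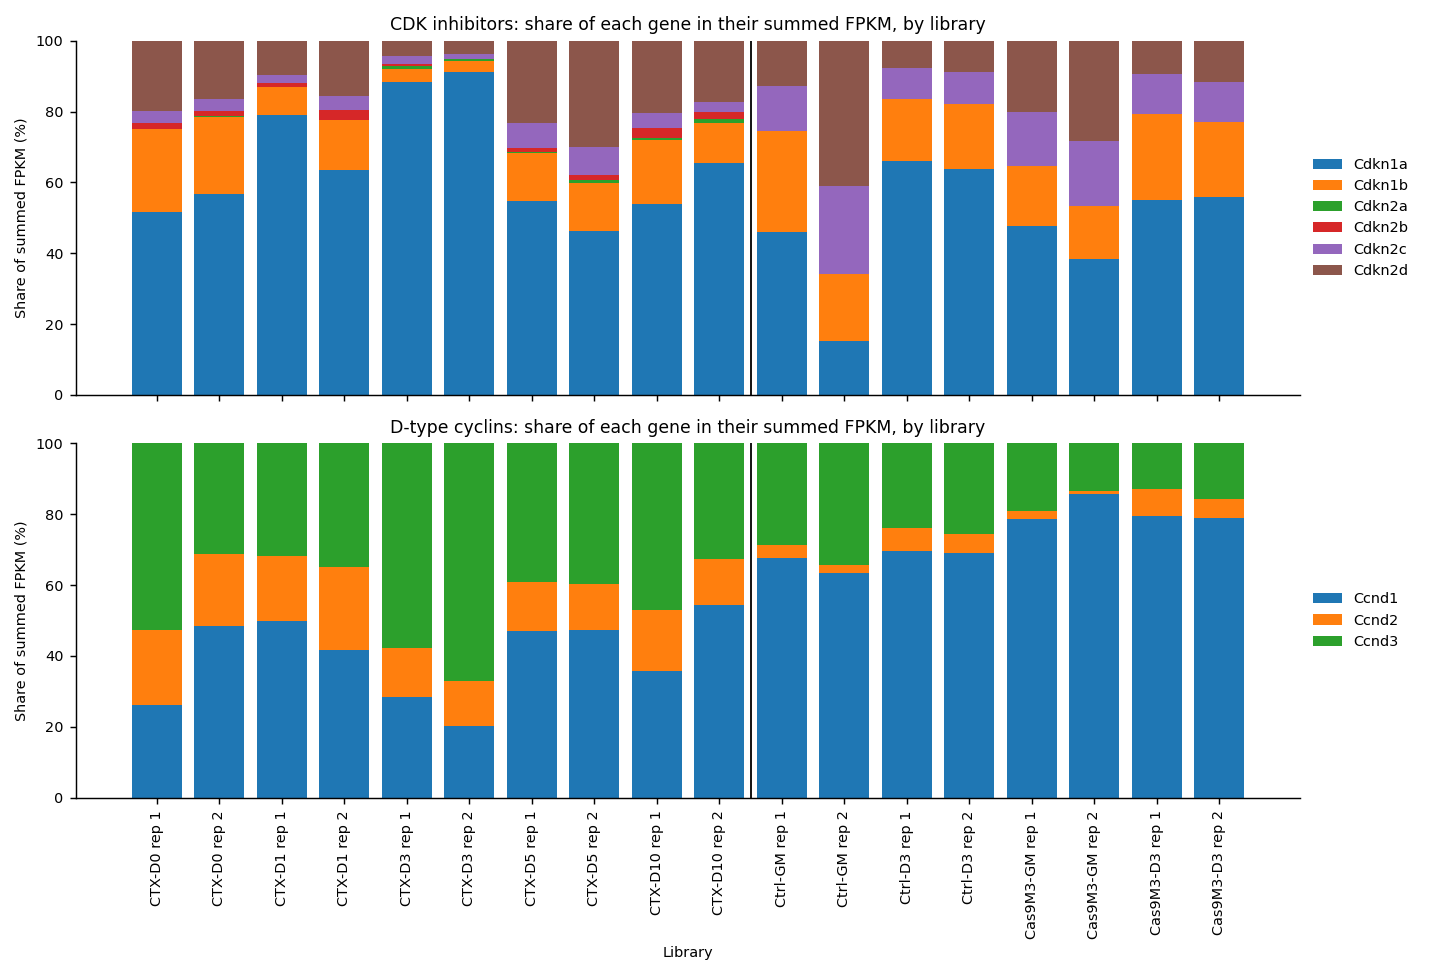
Share of each gene in the summed FPKM of the 6 inhibitors among the members, without Cdkn1c (upper), and of the 3 D-type cyclins (lower), in percent from 0 to 100, for every library, with muscle left of the line. Cdkn1a takes 88.4% and 91.0% of the inhibitors on day 3 and 15.1% in Ctrl-GM replicate 2.

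Ccnd1 differed widely between the libraries of a day on days 0 and 10. It was at 1.70 and 6.28 FPKM on day 0, 6.36 and 5.06 on day 1, 5.30 and 3.51 on day 3, 9.87 and 9.78 on day 5, then 3.26 and 9.64 by day 10. Only the day 5 libraries stood clear of day 0, by 1.55 ± 0.64 (adjusted p = 0.113), and without day 0 replicate 2 this becomes a call at 2.46. Ccnd3, the D-type cyclin known for rising in differentiating myoblasts, went from 3.43 and 4.06 on day 0 to 10.7 and 11.6 on day 3 (1.55, adjusted p = 0.000507). Ccnd1 made up 28.6% and 20.3% of the 3 D-type cyclins on day 3 and 26.1% and 48.4% on day 0, and the 2 days overlap. Ccnd2 stayed between 1.39 and 2.89.

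Return from day 3 could be followed in 4 members. Between days 3 and 10, Cdkn1a fell by 2.64, Cdkn2c by 1.04, Rb1 by 0.94 (adjusted p = 0.00365) and Rbl1 by 1.07 (adjusted p = 0.0205), among 37.9% of genes called. From day 1 to day 3, Cdkn1a, Cdkn2a, Cdkn2c and Rb1 rose, with 31.1% of genes called, Cdkn2a by 3.52 (adjusted p = 0.00469). Without day 3 replicate 2, the calls of Cdkn1a and Rb1 from day 1 are lost, in a fit that calls a smaller share of all genes. The fall of Rbl1 to day 10 is not called without day 10 replicate 1 or without either day 3 library. Nor is it called with the Xist term (adjusted p = 0.108) or with only those groups fitted (adjusted p = 0.0605). The term gives the same change as leaving out day 3 replicate 1 (-0.91), so these are not separate checks.

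Lists of related genes were counted for day 3 against day 0, and their counts stand beside the 24.5% and 24.3% of all genes that rose and fell. All 12 cyclins and partners of S and M phase rose (median 2.93), led by Cks2, a CDK subunit, from 0.441 to 7.99 FPKM (3.93, adjusted p = 0.00124). Of 12 genes listed as G1 cyclins and CDKs, 6 rose and 1 fell, with Ccne1, cyclin E1, rising by 2.66 (adjusted p = 0.000908). The fall was that of Ccnh, cyclin H, by 0.70 (adjusted p = 0.00338), which is in the list but is not a G1 cyclin. Of 9 E2F and DP factors tested, 4 rose and 2 fell; E2f8, a repressor, rose by 4.73 (adjusted p = 0.000482) and E2f6 fell by 2.25 (adjusted p = 0.000358). Of 8 DREAM and MuvB genes, 3 rose and 2 fell, Foxm1 by 2.38 upwards (adjusted p = 0.00616) and Lin52 by -1.01 (adjusted p = 0.0467). Of 12 proliferation markers, 7 rose and 5 were not called; Mki67 rose by 3.42 (adjusted p = 0.00734). Of 15 genes of p53 and its targets, 6 rose and 4 fell (median 0.12), with Eda2r up by 1.76 (adjusted p = 0.0133) and Phlda3 down from 196 to 57.4 FPKM (-1.77, adjusted p = 0.000638). Cdkn1a is itself a p53 target, and the part of p53 in its rise was not tested. Among 9 other inhibitors and turnover genes, 4 rose, led by Cdkn1c, and 3 fell, with Rbx1 at -0.46 (adjusted p = 0.03). Of 8 myogenic factors, 5 rose and 1 fell, with Myog, a driver of differentiation, from 9.35 to 248 FPKM (4.73, adjusted p = 0.000285) and Mef2c at -1.04 (adjusted p = 0.0017).

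In C2C12 cells no member was called in any of the 5 comparisons, and few genes were. Mettl3, the target, was at 4.70 and 5.65 FPKM in Ctrl-GM, 4.68 and 5.15 in Ctrl-D3, 0.331 and 0.118 in Cas9M3-GM, and 0.148 and 0.0805 in Cas9M3-D3. The lines separate without overlap as labelled. The 8 macrophage markers summed to 0.848 to 6.56 FPKM, and 4 of them (Adgre1, C1qa, C1qb and Itgam) were at 0 in all 8 libraries. A set of 6 endothelial markers summed to at most 0.222 FPKM. In Cas9M3-D3, 8 muscle fibre markers summed to 13.3 and 10.3 FPKM against 473 and 420 in Ctrl-D3, and Myog was at 3.50 and 2.28 against 89.1 and 83.3. Replicate 2 of Ctrl-GM stood apart from replicate 1, with 12 S and M phase genes summing to 917 against 186 FPKM, and replicate 2 of Cas9M3-GM deviated the same way, at 487 against 264. The fibre markers went the other way, at 13.4 in replicate 2 against 119 in replicate 1 of Ctrl-GM and 5.03 against 80.7 in Cas9M3-GM, as did Myog, at 2.70 against 11.1 and 0.182 against 12.7. The part of these differences in the Cdkn2c and Cdkn2d values was not tested. Replicate 2 was the shallower library in each group. A read per kilobase stood for 0.0315 FPKM in replicate 1 of Ctrl-GM and 0.104 in replicate 2, on 29180000 and 14230000 reads on genes. The factor did not follow the reads on genes here either, so gaps in FPKM between these 2 libraries depend on the scaling.

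**Figure D4:**
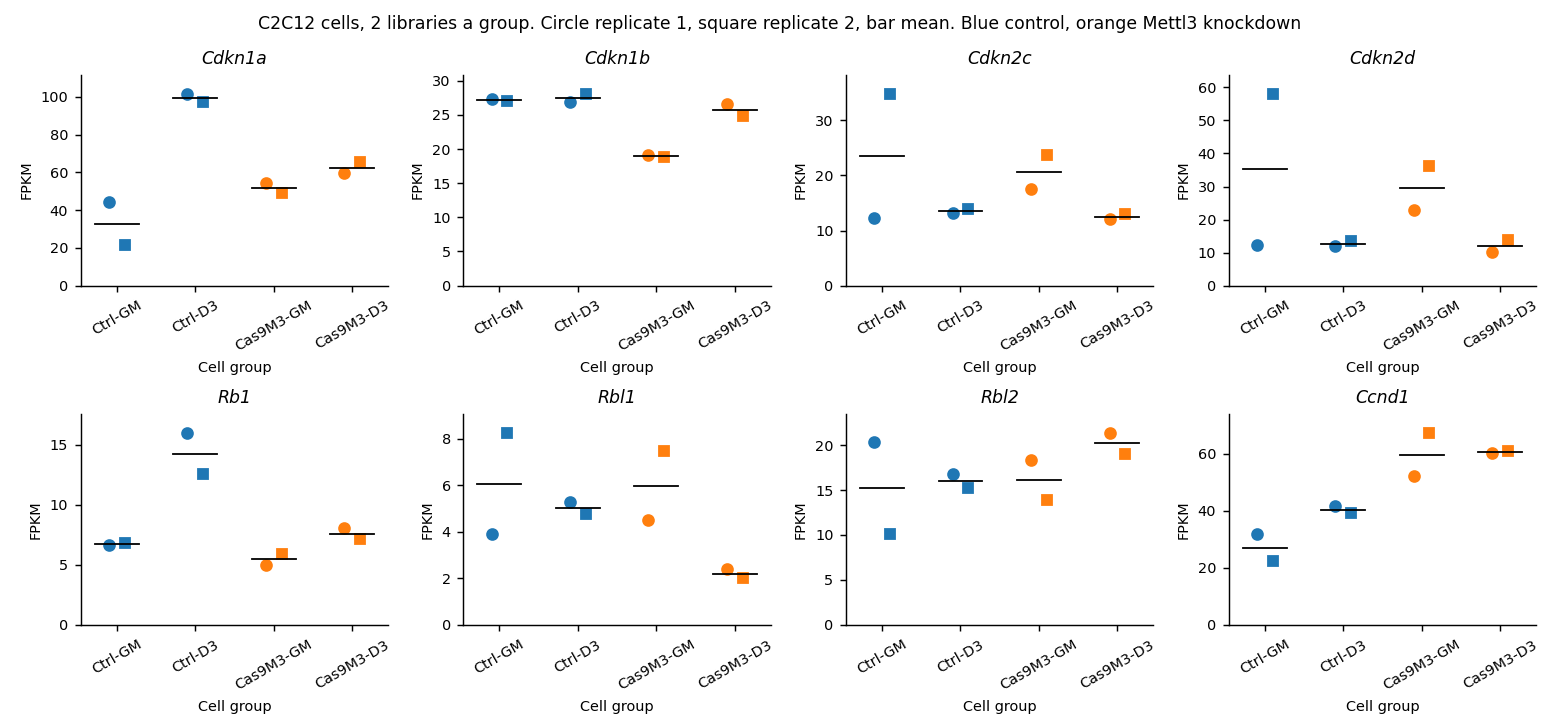
FPKM of 8 members (vertical axes, each starting at 0) in the 4 C2C12 groups (horizontal axes), with circles for replicate 1, squares for replicate 2 and bars at the mean. The GM libraries of Cdkn2c and Cdkn2d lie apart, Cdkn2d at 12.3 and 58.1 FPKM in Ctrl-GM, whereas the D3 libraries lie close together.

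In control cells, Cdkn1a and Rb1 came closest to the threshold between GM and D3. Cdkn1a was at 44.2 and 21.4 FPKM in Ctrl-GM and at 102 and 97.2 in Ctrl-D3, with no overlap, a change of 1.69 ± 0.33 (adjusted p = 0.0827). Rb1 was at 6.62 and 6.83 in GM and 16.0 and 12.5 on D3, also with no overlap, a change of 1.06 ± 0.20 (adjusted p = 0.0695). Neither passed the threshold, in a comparison where 1.14% of genes were called, and limma gave 3 members and 18.2% of all genes at an unadjusted p of 0.05. The libraries of 3 of the 8 members did not overlap, against 47.2% of all genes. Ccnd1 was at 31.8 and 22.5 in GM and 41.7 and 39.3 on D3 (0.59, adjusted p = 0.248).

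Cdkn2c and Cdkn2d depended on 1 library. In Ctrl-GM they stood at 12.3 and 34.9 FPKM and at 12.3 and 58.1, and in Ctrl-D3 at 13.2 and 13.9 and at 12 and 13.5. Ctrl-GM replicate 1 was thus close to the D3 level, while replicate 2 was far above it. Implied reads in these 2 libraries were 1054 and 904 for Cdkn2c and 615 and 883 for Cdkn2d, so the size of the gap depends on the scaling. Without Ctrl-GM replicate 1, 5 members are called, with Cdkn1a (2.21), Rb1 (1.04) and Ccnd1 (0.84) higher on D3 and Cdkn2c (-1.36) and Cdkn2d (-2.18) lower; that fit calls 27.0% of all genes. Without replicate 2, no member and 1.04% of genes are called. Rbl1 was at 3.90 and 8.24 in GM and 5.26 and 4.77 on D3, and Rbl2 at 20.3 and 10.1 in GM and 16.7 and 15.2 on D3, both overlapping. Cdkn1b kept to 26.9 to 28.1 FPKM in all 4 control libraries. This level also depends on the scaling, as its implied reads in Ctrl-GM were 3957 and 1188. Of the 12 S and M phase genes, all 12 had lower means on D3 (median -1.40) and none was called. The 1 E2F factor called was E2f2 (2.44, adjusted p = 0.0367), and the 1 proliferation marker was Rrm2, a ribonucleotide reductase subunit (-1.21, adjusted p = 0.0394). Of 5 myogenic factors tested, 2 rose, Myod1 by 3.55 (adjusted p = 0.026) and Mef2a by 2.32 (adjusted p = 0.0317).

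In cells with Mettl3 knocked down, GM and D3 were compared in the same way. Cdkn1a was at 54.4 and 49.2 FPKM in Cas9M3-GM and 59.7 and 65.2 in Cas9M3-D3. Rbl1 was at 4.49 and 7.46 in GM and 2.40 and 2.01 on D3 (-1.36, adjusted p = 0.238). Cdkn1b was at 19.2 and 18.9 in GM and 26.6 and 24.8 on D3 (0.43, adjusted p = 0.299). Rb1 was at 5.01 and 5.90 in GM and 8.05 and 7.13 on D3 (0.47, adjusted p = 0.395). Cdkn2c was at 17.5 and 23.7 in GM and 12 and 13 on D3 (-0.70, adjusted p = 0.654), and Cdkn2d at 22.8 and 36.2 in GM and 10.3 and 13.7 on D3 (-1.27, adjusted p = 0.548). Rbl2 was at 18.3 and 13.9 in GM and 21.3 and 19.0 on D3. The libraries of 7 of the 8 members, all but Ccnd1, did not overlap between the stages, against 48.0% of all genes. Of all genes, 0.0289% were called, and 2 members and 12.6% of genes had an unadjusted p of at most 0.05.

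**Figure D5:**
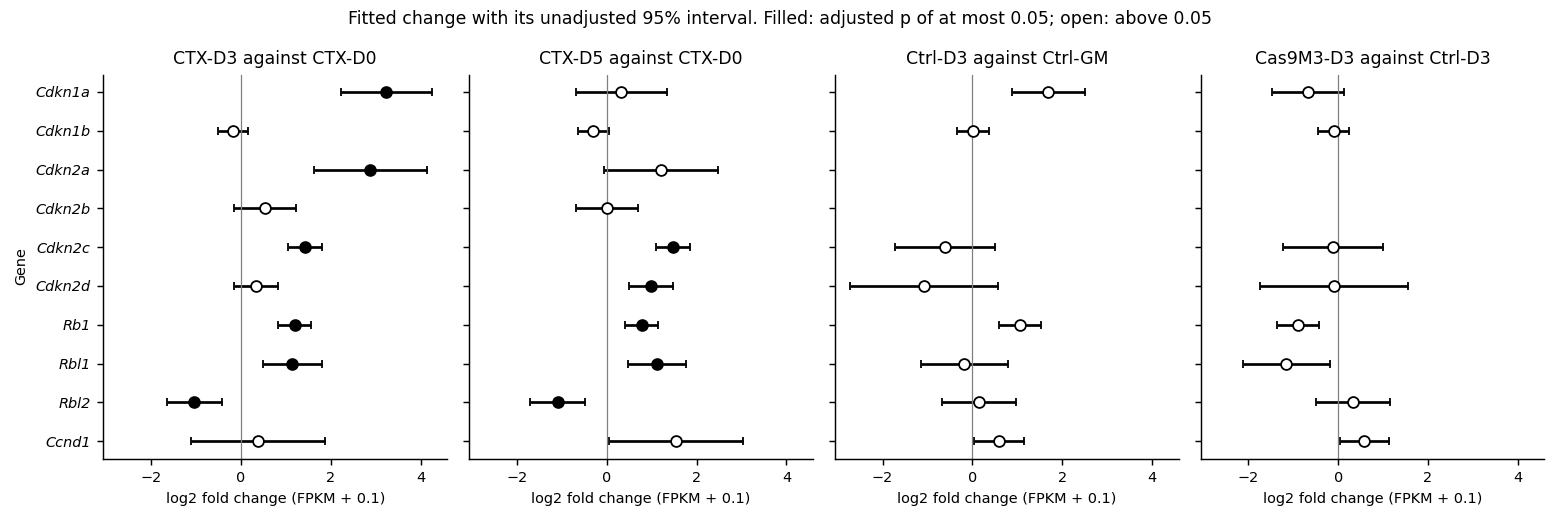
Fitted log2 changes (horizontal axes, FPKM + 0.1) of the members (vertical axis) in 4 comparisons with unadjusted 95% intervals, filled where the adjusted p is at most 0.05. Filled points occur in the 2 muscle comparisons, 6 on day 3 and 5 on day 5, and none in the cells.

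The lines were then compared at each stage. On D3, Rb1 was at 8.05 and 7.13 FPKM with the knockdown against 16.0 and 12.5 in control (-0.89 ± 0.20, adjusted p = 0.0815). Rbl1 was at 2.40 and 2.01 against 5.26 and 4.77 (-1.15 ± 0.40, adjusted p = 0.209), and Cdkn1a at 59.7 and 65.2 against 102 and 97.2 (-0.67 ± 0.33, adjusted p = 0.384). Ccnd1 was higher, at 60.3 and 60.9 against 41.7 and 39.3 (0.58 ± 0.23, adjusted p = 0.26). No member was called, against 1.98% of all genes, and 3 members and 17.6% of genes had an unadjusted p of at most 0.05. The libraries of 7 of the 8 members, all but Cdkn2d, did not overlap, against 63.5% of all genes. A fit of those 4 libraries alone calls all 4 genes, with adjusted p = 0.0217 for Cdkn1a, 0.0212 for Rb1, 0.00958 for Rbl1 and 0.0247 for Ccnd1, but also 21.6% of all genes. Leaving out either Ctrl-GM library makes the Cdkn1a difference a call, in fits that call 6.48% and 6.53% of all genes. The ratio of Rbl2 to Rbl1 within a library was 8.89 and 9.47 in Cas9M3-D3 against 3.18 in both Ctrl-D3 libraries, and in GM it was 4.07 and 1.87 with the knockdown and 5.21 and 1.23 in control, where the groups overlap. The 12 S and M phase genes summed to 69.8 and 84.6 FPKM in Cas9M3-D3 against 143 and 163 in Ctrl-D3. The 12 proliferation markers summed to 110 and 108 against 214 and 208. The part of these differences in the Rbl1 values and the ratio was not tested. Cdkn1a made up 55.0% and 55.9% of the summed inhibitors in Cas9M3-D3 and 66.1% and 63.7% in Ctrl-D3.

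In GM, Ccnd1 was at 52.2 and 67.3 FPKM with the knockdown against 31.8 and 22.5 in control (1.15 ± 0.23, adjusted p = 0.299), and Cdkn1b at 19.2 and 18.9 against 27.3 and 27.0 (-0.51 ± 0.15, adjusted p = 0.426). Of the 8 members, 4 did not overlap, against 29.4% of all genes. No member and 0% of genes were called, and 2 members and 9.0% of genes had an unadjusted p of at most 0.05. Ccnd1 made up 78.8% and 85.6% of the D-type cyclins in Cas9M3-GM against 67.7% and 63.4% in Ctrl-GM. The test of whether the knockdown acted differently on D3 than in GM called no member and 0% of all genes. Its largest member value was that of Cdkn1a, -1.42 with an interval of -2.56 to -0.27 and adjusted p = 0.483, the 1 member with an unadjusted p of at most 0.05, as 8.67% of genes had.

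Cdkn2a and Cdkn2b were listed at 0 in all 8 C2C12 libraries. A count of 0 reads allows up to 0.0805 to 0.265 FPKM of Cdkn2a and 0.0679 to 0.223 of Cdkn2b per library, at 3 reads and for counting error only. In the muscle libraries Cdkn2b was at 0.573 FPKM or more. Cdkn1c was low in the cells, at 0.139 and 0.102 FPKM in Ctrl-GM and 0.125 and 0.0589 in Ctrl-D3, and at 1.09 and 1.34 in Cas9M3-D3 (2.79, adjusted p = 0.0335). In Cas9M3-GM it was at 1.20 and 1.07 (2.49, adjusted p = 0.294), and the difference between the 2 effects was 0.30 (adjusted p = 0.9).

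The genes most like each member in both data sets were sought by the lower of its 2 Pearson correlations over 10 muscle and 8 cell libraries, among 9611 genes, as a description without a test. For Cdkn2c they were Hmgb2 (0.94 and 0.97) and Tacc3 (0.94 and 0.93), and for Rbl1 Top2a (0.95 and 0.97) and Slbp (0.95 and 0.95), which encode proteins of dividing cells. For Cdkn1a they were Spty2d1 and Macf1 (lower values 0.91 and 0.90), for Rb1 Serp1 and Iffo1 (0.93 and 0.93), and for Rbl2 Zfp949 and Zfp874b (0.95 and 0.92). Likeness was weaker for Cdkn1b, with Hexim1 at 0.71, and for Ccnd1, with Csnk1g3 at 0.77. The libraries of a table share their scaling and large changes between groups.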

How the data were processed

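RNA-seq of 10 muscle and 8 C2C12 libraries was analysed. The authors used HISAT2 for alignment to Ensembl GRCm38 and featureCounts for counting, and the FPKM values they deposited come from the fpkm function of DESeq2; versions and strand setting are not given in the sources used here. Depth was read from the steps of low values, using exon lengths of GENCODE M21. Of the low values, 96.44% to 97.34% were whole reads in muscle and 98.52% to 98.74% in cells.

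Testing covered genes that reached 0.5 FPKM in 2 or more libraries, as log2(FPKM + 0.1), with limma 3.58.1 (lmFit, eBayes with trend) in R 4.3.3, with Benjamini-Hochberg adjustment, after a check on simulated data. Promoters, lists and plots used Python 3.11.15, pandas 2.3.3, numpy 2.4.6 and matplotlib 3.10.9. Groups came from the labels. Members and lists were chosen with earlier results of these data known. All members were named; of each list, the called gene with the largest rise and fall (at least 1 FPKM) was named for CTX-D3 against CTX-D0 and Ctrl-D3 against Ctrl-GM.

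Same-numbered C2C12 libraries deviated together (correlations 0.278 to 0.680), so by this measure the numbers pair them; no source says why. The overexpression libraries were not analysed here.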

Additional observations from a re-analysis of the deposited data

How the results depend on the processing

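Alternatives were other pseudocounts, filters, scalings and thresholds, a fit of only the groups compared, a term for Xist, the replicate number as a block, and each library left out. The scalings were quantile normalization and median-ratio scaling. The latter called as many genes as the main fit in every comparison, so it is no separate check. Scaling by reads on genes was not tried, so the counts below do not cover it. Of 110 member changes, 78 exceeded 1 standard error or were called; 0 of these changed sign with every library kept and 4 did in leave-one-out fits. Of 20 calls, 11 were lost in at least 1 alternative that kept every library, and 11 in at least 1 leave-one-out fit. Cdkn2a rests on 0 to 2 reads per library on days 0 and 1, and Cdkn2b on 11 reads in its lowest library.

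Requiring a log2 change of 2 as well left 2 members called on day 3, 0 on day 5, 2 between days 1 and 3 and 1 between days 3 and 10. With the Xist term, which the day 3 pair alone sets, the counts were 0 on day 5, with 0% of all genes, and 4 on day 3, with 34.9%. They were 2 between days 1 and 3 (8.17%), 0 between days 3 and 5 (0%) and 3 between days 3 and 10 (23.4%). In the main fit the shares were 25.5% on day 5 and 48.8% on day 3. Between days they were 31.1%, 12.7% and 37.9%, in the same order. Between days 3 and 5, pseudocount 1 gave 2, with 15.6% of all genes, and the fit of only those groups gave 2, with 23.6%. Unadjusted p gave 4 there, with 29.4% of all genes. Unadjusted p gave 4 on day 1, 3 on day 10, 3 for Ctrl-D3 against Ctrl-GM, 2 for Cas9M3-D3 against Cas9M3-GM, 2 for Cas9M3-GM against Ctrl-GM, 3 for Cas9M3-D3 against Ctrl-D3 and 1 for the difference of the effects. The fit of only Cas9M3-D3 and Ctrl-D3 gave 4, and the shares of all genes for these counts are given above. The cause of these shifts was not tested.

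Leaving out 1 library gave 0 to 1 members on day 1, 4 to 6 on day 3, 0 to 5 on day 5, 2 to 4 between days 1 and 3, 0 to 1 between days 3 and 5, 3 to 4 between days 3 and 10, 0 to 5 for Ctrl-D3 against Ctrl-GM and 0 to 1 for Cas9M3-D3 against Ctrl-D3. The share of all genes called moved with these counts, so a changed count is not particular to the members. The lone library left in a group is assumed to vary like the others. Reversals were Ccnd1 on day 1 (-0.14 to 1.68, negative without day 0 replicate 1) and day 10 (-0.16 to 1.66), and Cdkn2c (-1.36 to 0.13) and Cdkn2d (-2.18 to 0.049) in Ctrl-D3 against Ctrl-GM, positive without Ctrl-GM replicate 2.

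With the replicate block, 6 members were called on day 3, 5 on day 5 and 0 in each comparison of the cells, and no count of members changed. The block moved all genes called from 158 to 411 for Ctrl-D3 against Ctrl-GM and from 274 to 505 for Cas9M3-D3 against Ctrl-D3. Muscle libraries with the same number share only that number (correlations -0.02 to 0.21).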
